A study of Mus musculus with 15 samples.

Results

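The cytosolic ribosome is built from a large and a small subunit, each a folded ribosomal RNA clothed with its own set of proteins. The genes described here are the 88 rows of the deposited table, out of 8446, whose symbol begins with Rpl or Rps followed by a number, or is that of a stalk protein Rplp. Of the 88 genes, 51 carry a large subunit name and 37 a small subunit name. The 4 Rps6k kinase rows were left out, and no row was left out for a pseudogene suffix (-ps) in its symbol. Some of the 88 are nevertheless annotated as pseudogenes, as given below. The choice used names only and no measured value.

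The measurements come from 15 single cells, 1 library each, numbered 1 to 15 and taken from inguinal white fat of C57BL/6 mice at the adult stage. All 15 cells form 1 group and share the same genotype and treatment. The mice were Prrx1-CreERT;Tomato animals, in which a tamoxifen-activated Cre recombinase driven by Prrx1, a gene of the limb and connective tissue mesenchyme, switches on a red reporter, and they were given tamoxifen at 2 mg per 30 g of body weight daily for 3 days. The cells were freed with collagenase II, sorted for Tomato and picked under a fluorescence microscope, and as no label ties a cell to an animal, all 15 are treated as a single sample, without p-values.

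Cells make ribosomal proteins in near equal numbers, since each ribosome holds nearly all of them once. Their mRNAs begin with a short stretch of pyrimidines, the terminal oligopyrimidine or TOP tract, through which mTOR signalling and the protein Larp1 hold back or release their translation together. Most ribosomal protein genes have also left many processed copies in the mouse genome, DNA made from their spliced mRNA, so that their reads are hard to place.

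Of the 88 genes, 75 encode core proteins of the ribosome, 45 of the large and 30 of the small subunit. The core genes Rpsa and Fau have rows under names outside the pattern, and Rpl13 was not analysed here. The other 13 genes are not core genes. They comprise 7 copies of core genes (Rpl37rt, Rpl6l, Rps27rt, Rps3a2, Rps3a3, Rps4l and Rps12l1), the paralogues Rpl22l1, Rpl36al, Rpl39l and Rps27l, the assembly factor Rpl7l1, and Rps19bp1, whose product binds Rps19 and is no part of the ribosome. Of the copies, only Rps27rt is annotated as protein-coding. Rpl6l, Rps3a2, Rps3a3 and Rps12l1 are annotated as processed pseudogenes, and Rpl37rt and Rps4l as transcribed processed pseudogenes. All 88 identifiers matched the same symbol in GENCODE M21 on GRCm38, and the genes lie on 19 chromosomes.

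A pyrimidine tract of the TOP kind lay at some of the annotated start sites. RefSeq promoters of the GRCm38.p6 assembly, running from 250 bases before to 50 bases after an annotated start, were found for 63 of the 88 genes. The 4 members below, shown because they combine such a start with a high level, are printed from 25 bases before to 25 bases after the start, 5′ to 3′ on the gene's strand. Capitals mark the run of pyrimidines that begins at the annotated start.
Rplp2 (chr7:141447626-141447675, plus strand): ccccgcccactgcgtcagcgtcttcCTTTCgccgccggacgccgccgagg
Rpl35 (chr2:39005107-39005156, minus strand): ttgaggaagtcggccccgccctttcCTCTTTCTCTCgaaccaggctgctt
Rps18 (chr17:33955641-33955690, minus strand): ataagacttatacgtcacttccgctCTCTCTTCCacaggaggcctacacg
Rps15a (chr7:118116123-118116172, minus strand): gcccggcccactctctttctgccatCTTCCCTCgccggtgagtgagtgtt

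A start of this kind, a C followed by at least 4 pyrimidines (C or T) on the gene's strand, stood at an annotated start of 14 of the 63 genes (22.2%). It stood at 3.01% of the 27025 genes with a promoter in the RefSeq table, and at 2.80% of the 750 genes that were detected in all 15 cells and are no ribosomal protein genes. A run of 8 pyrimidines anywhere from 20 bases before to 30 bases after the start was found for 33 of the 63 genes (52.4%), against 21.5% of all genes and 19.2% of the other genes detected in all cells. The ETS-type motif CCGGAAG, on either strand of the whole promoter window, was held by 25 of the 63 (39.7%), against 9.93% of all genes and 24.9% of the other detected genes. The motif TATAAA, also on either strand, was held by 11.1% of the 63, against 15.7% of all genes and 12.1% of the other detected genes. A gene counts here if any of its annotated starts holds the motif, and a match describes the letters only. The C start was sought only at the annotated base, so a gene without it there may still hold a pyrimidine run nearby. Core genes with the C start had a median level of 8.78 (n = 13) and those without it 8.44 (n = 42), with ranges that overlapped almost wholly (6.64 to 10.31 and 6.22 to 11.25). These levels, like all values below unless a percentage or count is named, are log2(FPKM + 1), where FPKM is the fragment count scaled by transcript length and library size.

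By FPKM, ribosomal protein genes were among the most abundant and most evenly detected transcripts of these Tomato+ fat cells. Detected means 1 FPKM or more. Of the 88 genes, 84 were detected in all 15 cells, whereas 12.1% of all rows were. All 75 core genes were among them, and 74 of these stayed at 5 FPKM or more in every cell, a level that 7.03% of all rows kept. Detection in 15 of 15 cells has an exact Clopper-Pearson 95% interval from 78.2%, which covers counting error over cells only. The median over cells reached 100 FPKM in 79 of the 88 genes, against 9.2% of all rows. Among the 50 highest rows, which are 0.592% of the table, were 8 of the 88. The 88 genes had a median transcript length of 704 nt, all rows 1984 nt and the rows detected in all cells 1071 nt. Scaling by length understates longer transcripts when sequencing is primed from 3′ ends, as here. The part of length in these shares was not tested. Because the authors had brought all cells to the same distribution of values, a level here is a place in the cell's own ranking and not an amount of RNA.

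**Figure D1:**
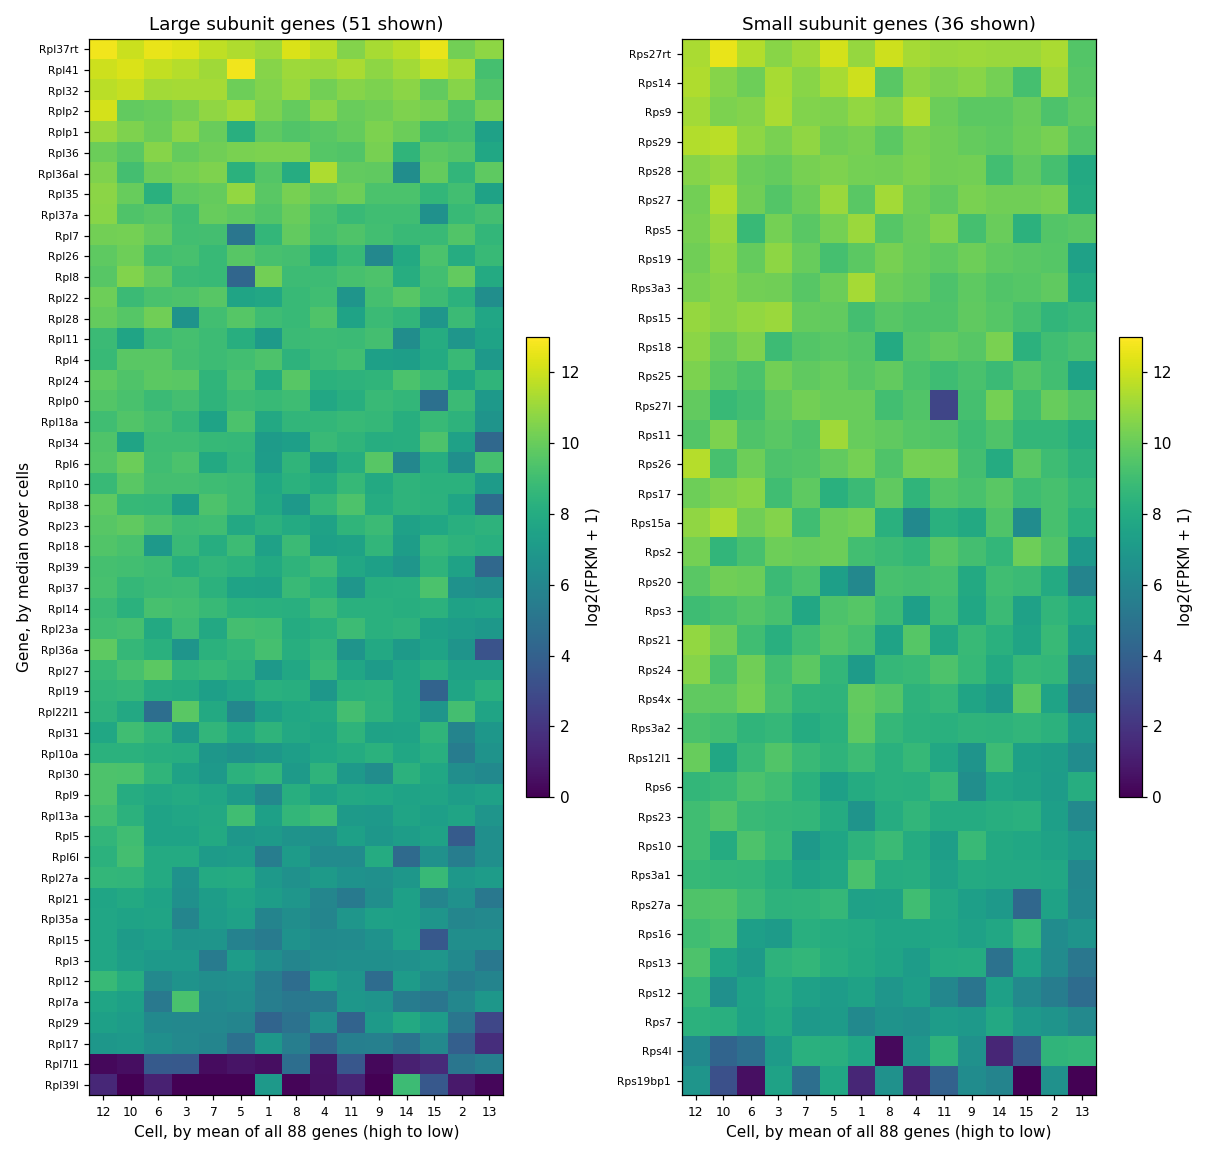
Level of 87 of the ribosomal protein genes (rows, ordered by median within the large and the small subunit) in each of the 15 cells (columns, ordered from the highest to the lowest mean of the 88 genes), as log2(FPKM + 1) on a colour scale from 0 to 13. Most rows are evenly high, cells 12 and 10 on the left are the highest, cell 13 on the right is the lowest, and Rpl7l1, Rpl39l, Rps4l and Rps19bp1 at the bottom have dark cells.

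Small subunit genes stood somewhat higher than large subunit genes. The median over genes of the gene medians was 8.36 for the 51 large subunit genes and 9.03 for the 37 small subunit genes. Among core genes it was 8.42 and 9.13. The mean of the small subunit genes was above that of the large subunit genes in every one of the 15 cells, by 0.42 in cell 15 at the least and by 1.26 in cell 5 at the most, with a median difference of 0.74. The gene levels of the subunits overlapped widely, from 5.65 to 11.25 for the core large and from 7.04 to 10.68 for the core small subunit. The unit takes off transcript length although the kit primes sequencing from 3′ ends, which understates longer transcripts. The core genes had nearly equal lengths, with medians of 711.5 nt for the large and 679.5 nt for the small subunit, and across the 75 core genes the level went with length at a Spearman correlation of −0.34, a description over genes that are not independent.

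Among large subunit genes the highest core members were Rpl41, Rpl32, Rplp2 and Rplp1. Rpl41 (chromosome 10, 128548114 to 128549305, minus strand of GRCm38), which encodes the smallest protein of the ribosome, ranged from 9.16 in cell 13 to 12.72 in cell 5, with a median of 11.25. Rpl32 (chromosome 6, 115805505 to 115808747, minus strand) ranged from 9.49 in cell 13 to 11.88 in cell 10, with a median of 10.64. Rplp1 and Rplp2 encode the acidic stalk proteins that recruit elongation factors to the large subunit. Rplp2 had a median of 10.31 and was highest in cell 12 (12.17) and lowest in cell 2 (9.43). Rplp1 had a median of 9.94 and stood at 7.45 in cell 13, lower than its partner. Rplp0, the base of the same stalk, had a median of 8.81 and its lowest value in cell 15 (4.78).

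The lowest core members of the large subunit were Rpl17, Rpl29 and Rpl7a. Rpl17, whose protein sits at the exit tunnel of the nascent chain, ranged from 1.71 in cell 13 to 6.96 in cell 10, with a median of 5.65. Rpl29 ranged from 2.76 in cell 13 to 7.89 in cell 14, with a median of 6.06. Rpl7a had a median of 6.22 and a single high cell, cell 3 at 9.25. Rpl5 and Rpl11, whose proteins carry the 5S ribosomal RNA and can bind the p53 regulator Mdm2 when ribosome assembly is disturbed, had medians of 7.25 and 8.85. Both were detected in all 15 cells, with their lowest values in cell 2 (3.74) for Rpl5 and cell 14 (6.36) for Rpl11.

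Among small subunit genes the highest core members were Rps14, Rps9, Rps29 and Rps28. Rps14 (chromosome 18, 60747098 to 60778546, plus strand), whose human counterpart lies in the segment lost in 5q− syndrome, ranged from 9.17 in cell 15 to 12.02 in cell 1, with a median of 10.68. Rps9 had a median of 10.47 and a range from 9.38 to 11.45. Rps29, a small zinc-binding protein, ranged from 9.49 in cell 13 to 11.64 in cell 10, around a median of 10.35. Rps28 had a median of 10.24 and stood at 7.90 in cell 13. The lowest core members were Rps7 (median 7.04), Rps12 (7.17) and Rps13 (7.66). Rps6, the substrate of the S6 kinases downstream of mTOR, had a median of 8.21, near the lower quartile of the small subunit genes (8.15), from 6.43 in cell 9 to 9.31 in cell 6. Rps27a, made as a fusion of ubiquitin and a ribosomal protein, had a median of 7.84 and was lowest in cell 15 (4.33).

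The 5 genes with the largest SD over cells were the non-core genes Rps19bp1 (2.87), Rpl39l (2.74), Rps4l (2.63), Rpl7l1 (1.98) and Rps27l (1.84), while other non-core genes such as Rps3a2 (0.61) and Rps27rt (0.69) were even. Rpl39l, a paralogue of Rpl39 known for its expression in testis, had a detectable level in 6 cells (40.0%, exact 95% interval 16.3% to 67.7%), with high values in cell 14 (8.89) and cell 1 (7.02). Rpl39 itself was detected in all cells, with a median of 8.36. Rpl7l1 was detected in 8 cells (53.3%, 95% interval 26.6% to 78.7%), highest in cell 13 (5.61), with a median of 1.13. Rps19bp1, a nucleolar partner of Rps19 that also binds the deacetylase Sirt1, was detected in 12 cells (80.0%, 95% interval 51.9% to 95.7%), with a median of 4.73, and was listed at 0 in cells 13 and 15. Rpl22l1, the paralogue that Rpl22 is known to repress, was detected in all cells, from 4.72 in cell 6 to 9.66 in cell 3, and had a Spearman correlation of 0.20 with Rpl22 over the 15 cells. Rps27l, a paralogue of Rps27 known in human cells as a p53 target, stood between 8.75 and 10.29 in 14 cells and at 2.73 in cell 11, the farthest that any value of the 84 genes lay below its gene's median. Rpl36al had a median of 9.85, above that of Rpl36a (8.15), and was higher than it in 12 cells.

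The listed values of 6 of the 7 copies followed those of their source gene from cell to cell with little scatter. Rps27rt (chromosome 9, 114982366 to 114982739, minus strand, 1 exon) is annotated as a protein-coding copy of Rps27 (chromosome 3, 90212522 to 90213651, minus strand). The 2 starts, shown because the copy begins at the base where the source mRNA nearly begins, read as follows, with capitals for the bases they share from the start on.
Rps27 (chr3:90213623-90213667, minus strand): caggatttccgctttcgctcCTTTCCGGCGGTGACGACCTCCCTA
Rps27rt (chr9:114982715-114982759, minus strand): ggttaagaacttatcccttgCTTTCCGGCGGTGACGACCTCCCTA
The shared run begins at the annotated first base of Rps27rt and at base 2 of Rps27, and goes on for 38 bases. The lower-case bases before it differ. Over the transcripts 341 aligned bases were 100% identical.

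Rps27rt was above Rps27 in all 15 cells, by 0.71 to 1.56, and the difference had an SD over cells of 0.22. Rpl37rt, the highest of the 88 genes with a median of 11.64, exceeded Rpl37 by 3.14 to 4.37 in all 15 cells (SD 0.30), with 99.7% identity over 294 aligned bases. The aligned transcripts were 835 nt long for Rpl37 and 294 nt for Rpl37rt, a log2 ratio of 1.51. FPKM is scaled by length, and the part of length in this excess and in the top rank was not tested. Rps12l1 exceeded Rps12 by 1.25 to 1.77 (SD 0.18), Rps3a3 exceeded Rps3a1 by 1.60 to 2.28 (SD 0.18), and the difference of Rpl6l from Rpl6 ran from −2.71 to −0.75. The Spearman correlations of these copies and of Rps3a2 with their source lay between 0.86 and 0.97, and 4 of them were the 4 highest of the 3828 pairs of the 88 genes. The SD of the difference over all 3828 pairs had a median of 1.09. These 6 copies were 98.7% to 100% identical to their source over the aligned bases. No label states how reads shared between copies were counted, so the separate values of these source genes and copies are uncertain. The same holds for their correlations and differences, and the part of shared reads in them was not tested. The seventh copy, Rps4l, is 79.9% identical to Rps4x and did not follow it, with a Spearman correlation of −0.40. Rps4l was detected in 14 cells (93.3%, 95% interval 68.1% to 99.8%) and ranged from 0.33 in cell 8 to 8.60 in cell 13, where Rps4x was at its lowest (5.23).

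**Figure D2:**
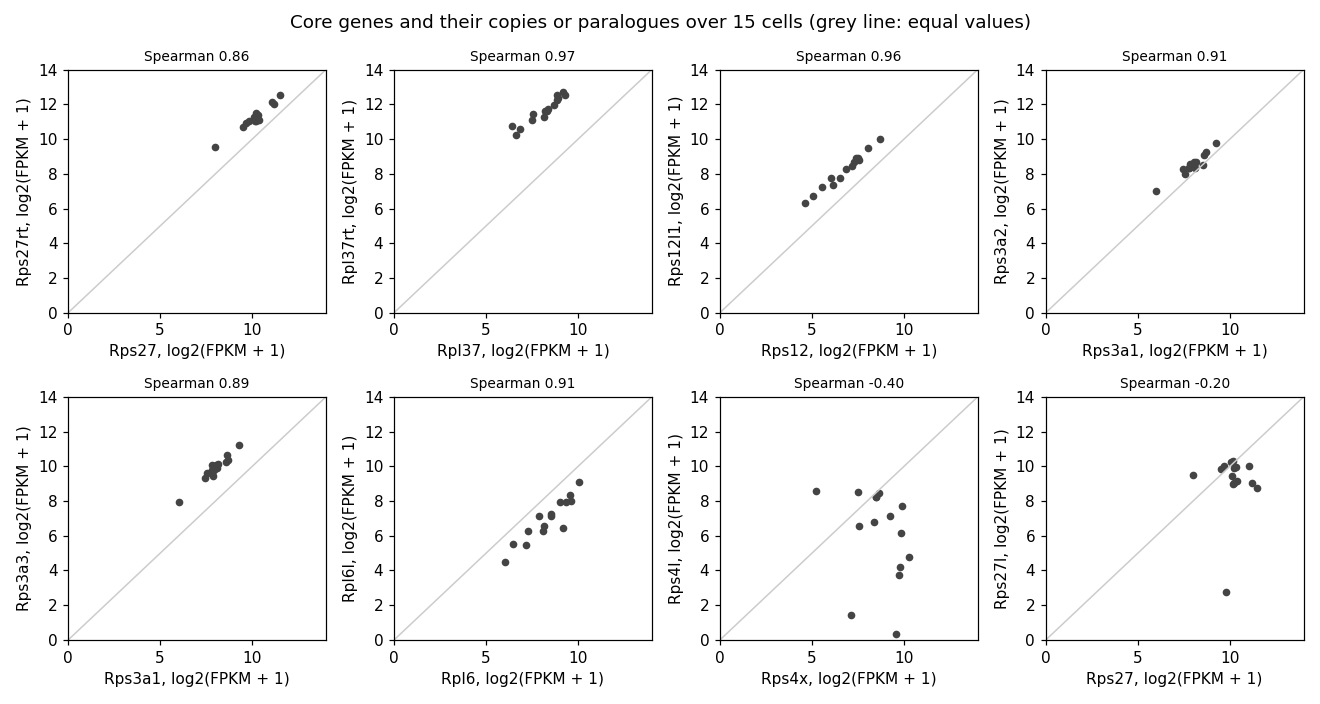
Each panel plots a copy or paralogue (vertical axis) against its core gene (horizontal axis), both as log2(FPKM + 1), with 1 point per cell for 15 cells and a grey line at equal values. The copies Rps27rt, Rpl37rt, Rps12l1, Rps3a2, Rps3a3 and Rpl6l lie along a line parallel to it, while Rps4l and Rps27l scatter.

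Cells differed in the normalized level of their ribosomal protein genes, and the large and small subunits moved together. The mean of the 88 genes was highest in cell 12 (9.33) and cell 10 (8.99), lay between 7.88 and 8.71 in the next 12 cells, and was lowest in cell 13 (7.07). In the order of the means, neighbouring cells from cell 6 down to cell 15 were hardly separated. Their median gene-by-gene differences lay between −0.05 and 0.19. Cell 12 was above cell 13 for 86 of the 88 genes, with a median difference of 2.17, whereas it was above cell 13 for 486 of the 939 other genes detected in all cells. It was above cell 10 for 52 of the 88 genes and for 525 of the 939, which are like shares. Of the 88 genes, 84 were above their own median in cell 12, 68 in cell 10 and 6 in cell 13. Cell 13 held the lowest value of 42 genes, and cells 12 and 10 held the highest value of 29 and 26.

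As a share of each cell's summed FPKM, the 88 genes made up 15.5% in cell 12 and 3.82% in cell 13, with a median of 8.71% over the 15 cells. The large subunit took 2.08% to 8.14% and the small subunit 1.73% to 7.37%. The sums use the normalized values, so these are not shares of a cell's RNA. The means of the subunits had a Pearson correlation of 0.917 and a Spearman correlation of 0.864 over the 15 cells, which share the normalization. Without cells 12 and 13, the farthest from the median, these were 0.780 and 0.791. Core small subunit genes exceeded core large subunit genes by 0.48 in cell 9 to 1.06 in cell 1.

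**Figure D3:**
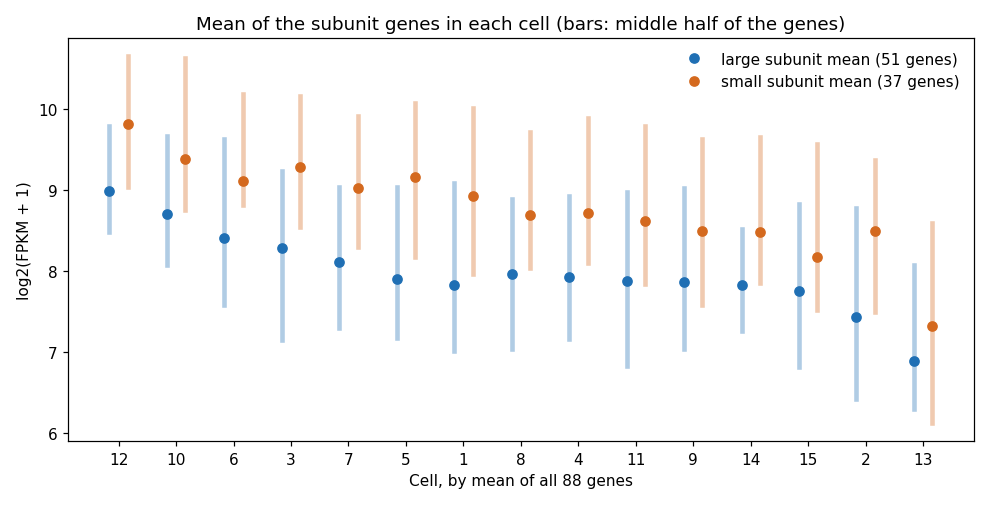
Mean level of the 51 large subunit genes (blue) and the 37 small subunit genes (orange) in each of 15 cells as log2(FPKM + 1), with pale bars for the interquartile range of the genes and cells ordered by the mean of all 88 genes. The small subunit mean lies above the large subunit mean in every cell, and both fall from cell 12 (8.98 and 9.82) to cell 13 (6.89 and 7.32).

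Measures of the cells that moved with this level were few. The number of rows at a cell's lowest value, the measure of breadth left by the normalization, ran from 930 to 1974 and had a Spearman correlation of −0.29 with the mean of the 88 genes; it was 1385 in cell 12 and 1383 in cell 13. The median of the 939 other genes detected in all cells was 7.12 in cell 12 and 7.07 in cell 13, and lowest in cell 10 (6.66). Cell 13 also carried the 4 analysed mitosis genes (Cdk1, Birc5, Ube2c and Prc1) at a mean of 11.12, where the other cells had 0.00 to 2.60, and the 9 analysed stromal markers at 4.52, where the others had 6.18 (cell 12) to 9.62 (cell 11). Its mural markers stood at a mean of 5.83, and those of cell 5, whose ribosomal protein mean was 8.43, at 8.72. In cell 13 the mural markers were split. Higd1b (10.68), Kcnj8 (9.43) and Rgs5 (6.90) were high there and Abcc9 stood at 1.68 (median 0.12), while Acta2 (0.45) was below its median of 1.41. The part of these features in the low level of cell 13 was not tested. Pdgfra, a receptor gene of fibroblast-like fat progenitors, was detected in 14 of the 15 cells and stood at 0.20 in cell 13. Pdgfrb, of the same stromal list, went the other way and had its highest value in cell 13 (7.66 against a median of 3.47). Of the endothelial markers, Esam was at 10.90 in cell 13 while Tek was at 0.06 there and highest in cell 1 (5.04). The immune marker Csf1r was highest in cell 2 (6.39), and the adipocyte markers Cfd and Fasn were each detected in 4 cells.

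Within a cell the low level was not shared evenly. In cell 13, Rpl36a (3.34 against a median of 8.15), Rpl34 (4.40 against 8.52), Rpl39 (4.40 against 8.36) and Rpl38 (4.55 against 8.45) lay far below their medians, as Rpl17 did, while Rpl6 (9.18), Rplp2 (10.27) and Rpl7a (6.91) stood close to or above their medians. After each gene's median and each cell's typical deviation were taken off, 8 of the 84 genes lay 2 or more below in cell 13, 6 did in cell 15 and 5 did in cell 14, whereas no other cell had over 2 such genes. Single drops were seen elsewhere. Rpl8 and Rpl7 stood at 4.27 and 5.11 in cell 5, against medians of 9.04 and 9.13. In cell 15, Rplp0, Rpl19, Rps27a and Rpl15 stood at 4.78, 4.13, 4.33 and 3.59. Upward departures were rarer: Rpl7a in cell 3 was the only value of the 84 genes to lie 2 or more above.

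Ribosomal protein genes covaried with one another far more than other abundant genes did. The mean Spearman correlation over the 15 cells was 0.306 for the 3828 pairs of the 88 genes, 0.297 within the large subunit, 0.330 within the small subunit and 0.303 between them. A pair from different subunits was thus about as alike as a pair from the same one. Of the pairs, 87.4% were positive. The 574 other genes detected in all cells with a median of at least 100 FPKM had a mean pair correlation of 0.019, and 52.4% of their pairs were positive. Core genes alone had a mean of 0.367. The correlation rests in part on the highest and the lowest cell: without cells 12 and 13 the mean was 0.171 for the 88 genes, 0.216 for the core genes and 0.023 for the other abundant genes. Genes share their cells and their libraries, so these means are descriptions of 15 libraries.

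**Figure D4:**
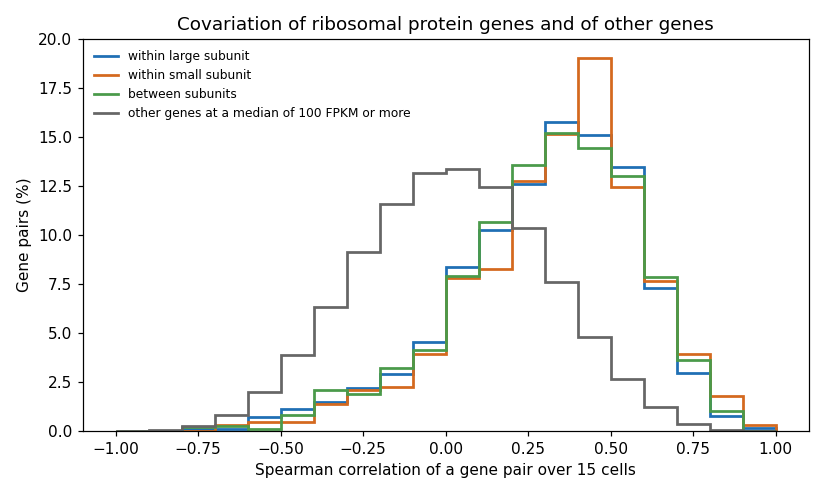
Distribution of Spearman correlations of gene pairs over 15 cells (horizontal axis) as a percentage of the pairs of each kind (vertical axis), for pairs within the large subunit, within the small subunit, between subunits, and among 574 other genes with a median of at least 100 FPKM. The curves of the ribosomal protein genes lie on top of each other around means of 0.297 to 0.330, and the grey curve of the other genes is centred near 0.

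Rps15 and Rps27a were among the genes that followed the rest of the group most closely. Their Spearman correlations with the mean of the other 87 genes were 0.86 and 0.80. Rps15 ranged from 8.57 in cell 2 to 11.05 in cell 3. Outside the copies, close pairs included Rpl27 with Rpl39 (0.88) and Rpl27 with Rps23 (0.87). Over the 87 genes detected in at least 8 cells this correlation had a median of 0.59, and its lowest values were those of Rpl7l1 (−0.51), Rps4l (−0.31) and Rps27l (−0.04). Among core genes Rps27 (0.18), Rplp2 (0.25) and Rpl8 (0.25) followed least.

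Ribosomal protein genes with rows outside the name pattern were detected in all 15 cells as well. Rpsa, which encodes the small subunit protein once taken for a laminin receptor, had a median of 6.93, below that of every core small subunit gene among the 88, was lowest in cell 13 (2.89), and had a Spearman correlation of 0.67 with the mean of the 88 genes. Fau, which encodes a fusion of a ubiquitin-like protein with a small subunit protein, ranged from 7.35 in cell 7 to 9.90 in cell 5, with a median of 8.27 and a correlation of 0.21. Gnb2l1, the signalling scaffold Rack1 of the small subunit, had a median of 9.43 and its highest value in cell 12 (11.30), with a correlation of 0.44.

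Other TOP mRNAs and translation factors followed less. All 19 such genes that were listed had a row. Of them, 14 were detected in every cell and 14 had a positive correlation with the mean of the 88. The highest were Tpt1, the translationally controlled tumour protein (median 10.68, correlation 0.58), and Eef1a1, the elongation factor that delivers aminoacyl-tRNA (10.49, 0.25). Eef1b2, its exchange factor, had a correlation of 0.62, and Btf3 of −0.39. Their mean had a Spearman correlation of 0.26 with that of the 88 genes, and of 0.02 without cells 12 and 13. Ribosome assembly genes stood much lower. Of 36 listed, 33 had a row. Only Ncl, Eif6 and Gnl3 of these 33 were detected in every cell. The highest medians were those of Nop10 (7.96), Eif6 (7.93) and Ncl (7.18), and the median over the 33 genes was 1.13. Their mean had a Spearman correlation of −0.02 with that of the 88. Of 13 genes that control ribosomal protein mRNAs 12 had a row, and the highest was Eif4ebp1, an inhibitor of cap-dependent translation (8.27). Myc, which drives ribosome production, was detected in all cells, from 1.12 in cell 8 to 10.04 in cell 9 (correlation −0.48), and stood at 1.84 in cell 12 and 4.69 in cell 10. Mtor and Larp1 were detected in 5 and 4 cells, and Ybx1, an mRNA-binding protein, in all 15 (0.61).

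Across the 3862 other genes detected in at least 8 cells, the correlation with the mean of the 88 had a median of 0.014 and an interquartile range from −0.18 to 0.21. At its upper end were Htatip2 (0.84), Tprgl (0.81), Sepw1 (0.75), Mpc2 (0.74), S100a13 (0.73), Psmd13 (0.73), Pla2g16 (0.72), Lrp1 (0.72), Ptp4a2 (0.71) and Chpt1 (0.71). At its lower end were Selk (−0.89), Cnot2 (−0.83), Prkar1a (−0.83), the polyubiquitin gene Ubb (−0.81) and Oser1 (−0.76). Selk, a selenoprotein of the endoplasmic reticulum, ranged from 7.46 in cell 10 and 7.75 in cell 12 to 9.56 in cell 13 and 9.90 in cell 14. These are the extremes of many values over 15 cells.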

How the data were processed

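The study measured mRNA in 15 single Tomato+ cells using the SMART-Seq v4 kit for 3′ differential expression, with libraries made by Nextera XT, per the labels' protocols. TopHat2, Cufflinks and the build GRCm38 are named in the submitters' processing notes. Versions of both programs were not given in the sources used here. Although the deposited table is named as FPKM, its deposited values proved to be log2 values with a maximum of 13.69. Read as log2(FPKM + 1) they sum to a mean of 592948 FPKM per cell. Sorted columns differed by at most 0.0354 wherever values exceeded 0.2, which means that the deposited log2 values had been brought to 1 distribution over the cells. The base, the pseudocount of 1 and this normalization were inferred from the values. The design had assumed linear FPKM. No further logarithm was taken. Read depth is unknown. Columns were tied to cells by the number in name and title, 18 columns without name were empty, and 0 columns with values were left unused.

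Levels were summarised as medians over cells, covariation as Spearman correlations over cells, with numpy 2.4.6, pandas 2.3.3 and scipy 1.17.1. The correlation code was tested on simulated data. Transcript length is the median over protein-coding transcripts in GENCODE M21, and identities come from local alignment with biopython 1.88. Members named in the text are the 5 highest and lowest of each subunit, the 3 that follow the group most and least, the non-core genes and those not detected in all cells. Other members that are named (such as Rpl5, Rpl11, Rps6, Rplp0 and those with single drops) and the least-following core genes were chosen after their values were seen or for their known role. Members and lists were chosen with earlier results of these data known. No test was made, because the 15 cells form 1 group with no animal named. Results for some genes that these rules name are not reported here by gene, and they remain in the counts and means.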

Additional observations from a re-analysis of the deposited data

How the results depend on the processing

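The 10 summary results (subunit levels, detection, pair correlations, correlation of the subunits and spread of the cell means) were recomputed under 26 other settings. This gave 243 values, of which 239 stayed within a limit set for each result and 4 moved beyond it. The limits were wide. For the pair correlations the limit was the SD over single gene pairs, 0.27 for the mean of 0.306. Some values could not move: pair rank correlations do not depend on the pseudocount or the length setting. The spread of the cell means stayed the same unless cell 12 or 13 was left out. The count of 239 therefore says little about how firm the results are. Of the values, 0 changed sign. Levels, detection counts and the spread of the cell means cannot be negative, so only the correlations and the subunit difference could have done so. Leaving out cells 12 and 13, like leaving out the 7 copies, was chosen after seeing the data. Multiplying FPKM by transcript length in kb lowered the large subunit level from 8.36 to 7.78 and the small subunit level from 9.03 to 8.50. The difference between them was then −0.72. The lowering follows from the unit of kb, since the median lengths were 711.5 nt for the large and 681 nt for the small subunit. The difference between the highest and the lowest cell mean was 2.26, 1.46 without cell 13 and 1.11 without cells 12 and 13, and the correlation of the subunits without cells 12 and 13 was 0.780. The mean pair correlation fell from 0.306 to 0.171 without cells 12 and 13. Leaving out each cell in turn gave mean pair correlations from 0.232 (without cell 12) to 0.332, and differences of the large from the small subunit level from −0.78 to −0.57. Centring each cell on the other genes raised the mean pair correlation to 0.378. The cause of the other shifts was not tested. No paired analysis was possible because the cells form 1 group. Depth could not be weighed, since the values hold no counts, and values of near-identical copies cannot be separated.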

Other observations

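The mRNAs for the proteins of the mitochondrial ribosome, which is a separate machine, did not as a group follow those for the cytosolic one. All 77 rows named Mrpl or Mrps with a number were used, and 20 of them were detected in all 15 cells. Their medians had a median of 4.28, and the highest was that of Mrps21 (9.68). Their mean had a Spearman correlation of 0.01 with the mean of the 88 cytosolic ribosomal protein genes over the 15 cells, and 40 of the 77 genes had a positive one. Cell 12 was highest for both groups (5.32 for the mitochondrial one), cell 10 was high for the cytosolic one and low for the mitochondrial one (3.38), and cell 13, the lowest for the cytosolic one, stood at 4.58.

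The 8 immediate early genes that were listed, which answer to dissociation and other stimuli, all had a negative correlation with the mean of the 88 genes, from −0.55 for Ier2 and −0.54 for Jun to −0.01 for Fosb. Across the 3862 other genes detected in at least 8 cells, this correlation had a median of 0.014 and a lower quartile of −0.18. Ier2, Jun, Atf3, Fos and Dusp1 lay below that quartile, and Junb (−0.14), Egr1 (−0.09) and Fosb above it. The mean of the 8 genes had a Spearman correlation of −0.42 with the mean of the 88, and of −0.48 without cells 12 and 13. No test was made of either relation.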
